A study of Rattus norvegicus with 36 samples.

Results

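The 6 genes described here are Prkch, Camk2b, Ifgga2l1, Nod1, Art3 and Hpgd, each near the top of at least 1 ranking by H-ras status in rat mammary cancers. They were picked from the array values themselves, from among the genes with the smallest p for H-ras mutated against nonmutated cancers. The cancers were those of rats given MNU or gamma rays plus MNU, and other genes ranked as near. They are 6 of the 14218 gene symbols on the array, and 9 of its 31099 probe sets carry 1 of these symbols and no other. Because their H-ras differences in MNU and in radiation plus MNU chose them, those differences are given as a description with no test. Tests are given only for comparisons other than those that made the choice. The comparison of all cancers with normal tissue still includes the MNU and radiation plus MNU cancers that chose the genes. Its tests are therefore not independent of the choice.

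The study measured expression on 36 single-colour arrays of tissue from female Sprague-Dawley rats, of which 33 held a mammary cancer and 3 normal mammary gland. MNU (N-methyl-N-nitrosourea) is an alkylating agent that induces rat mammary cancers, many with a mutation in H-ras, and PhIP is a heterocyclic amine formed when meat is cooked. The groups were radiation plus MNU cancers (5 H-ras mutated and 4 nonmutated), MNU cancers (5 mutated and 4 nonmutated), radiation plus PhIP cancers (4, all nonmutated), PhIP cancers (1 mutated and 3 nonmutated), radiation cancers (4, nonmutated), spontaneous cancers (3, nonmutated) and normal tissue of untreated rats (3). Radiation was 1 Gy of whole-body gamma rays at 7 weeks of age, MNU was 40 mg/kg and PhIP was 40 mg/kg/day for 5 days a week over 2 weeks, with the chemical starting 3 days after any irradiation. Every rat, controls included, was fed a high-fat diet (23.5% corn oil) from the age of 9 weeks. The age at which tissue was taken, and whether each cancer came from a different rat, are not given in the sources used here, so p-values measure the spread between these samples, which may be partly technical. H-ras status was a label of each cancer and not an engineered allele, and the Hras transcript itself was not analysed here, since its probe set also carries a second symbol.

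H-ras is a small GTPase that carries growth factor signals to the RAF, MEK and ERK kinases and to other effectors, and its activating mutations are a known feature of MNU-induced rat mammary cancers. The 6 genes belong to no single pathway. Prkch encodes protein kinase C eta, a diacylglycerol-activated kinase of epithelia, and Camk2b encodes the beta subunit of calcium/calmodulin-dependent protein kinase II. Ifgga2l1 is by its name a relative of the interferon-gamma-inducible GTPases, and Nod1 encodes a cytosolic receptor for fragments of bacterial peptidoglycan that signals to NF-kappaB. Art3 encodes a member of the mono-ADP-ribosyltransferase family, and Hpgd encodes the enzyme that starts the breakdown of prostaglandins.

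Interferons act on many of their target genes through a promoter element with a core of GAAA, any 2 bases and GAAA again, and the RefSeq promoter of Ifgga2l1 holds this core. The 300 bases from 250 before to 50 after the gene start (GRCr8, plus strand, chr18:56031657-56031956) are shown because the genes most like Ifgga2l1 in these cancers include known interferon targets. The capitals mark the match, which reads as the core on the opposite strand and begins at position -136 from the gene start.
Ifgga2l1: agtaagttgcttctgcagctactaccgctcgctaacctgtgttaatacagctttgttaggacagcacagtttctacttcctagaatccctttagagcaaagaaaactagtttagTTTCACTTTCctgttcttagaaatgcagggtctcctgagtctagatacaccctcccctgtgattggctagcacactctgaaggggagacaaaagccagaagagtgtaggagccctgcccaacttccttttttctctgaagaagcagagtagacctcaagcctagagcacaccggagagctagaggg
Searched on both strands, this core occurred in 3.92% of 33469 rat promoters of the same length, and in none of the promoters of Camk2b, Nod1, Art3 and Hpgd. The AP-1 site TGANTCA, a sequence bound by Fos and Jun proteins, occurred in 7.33% of promoters and in none of these 5, and the ETS core GGAAGT occurred in 22.6% of promoters and at 2 positions in that of Ifgga2l1. No promoter of Prkch was available to search. A match is a description of letters in this window only.

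Values below are intensities on the deposited linear scale unless they are called log2. Differences are on the scale log2(intensity + 42.8), which understates changes of weakly expressed genes. They come from limma, with 1 mean per group over all 36 arrays, and p-values were adjusted over 11773 genes by the Benjamini-Hochberg method. Over all genes, 0 of 11773 (0%) passed the adjusted threshold of 0.05 between H-ras mutated and nonmutated cancers of both MNU regimens together, and 886 (7.53%) had an unadjusted p under 0.05. The 6 genes came from different parts of that contrast. Over both regimens together Ifgga2l1, Camk2b and Prkch ranked 1, 2 and 3 by p, Art3 ranked 30, Nod1 335 and Hpgd 443. Among radiation plus MNU cancers Camk2b and Art3 ranked 2 and 3. Among MNU cancers Prkch, Nod1 and Hpgd ranked 1, 3 and 5. Genes outside the 6 ranked as near: Ctla2a, Msx1 and Fkbp5 were 4, 5 and 6 over both regimens together. Gpnmb ranked 1 among radiation plus MNU cancers, and Stat5a and Msx1 ranked 2 and 4 among MNU cancers. The 3 genes next after Hpgd in the joint ranking were Acsl4 (-0.44), Mybpc2 (0.34) and Htra3 (-0.48 on the log2 scale), against -1.15 for Hpgd.

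**Figure D1:**
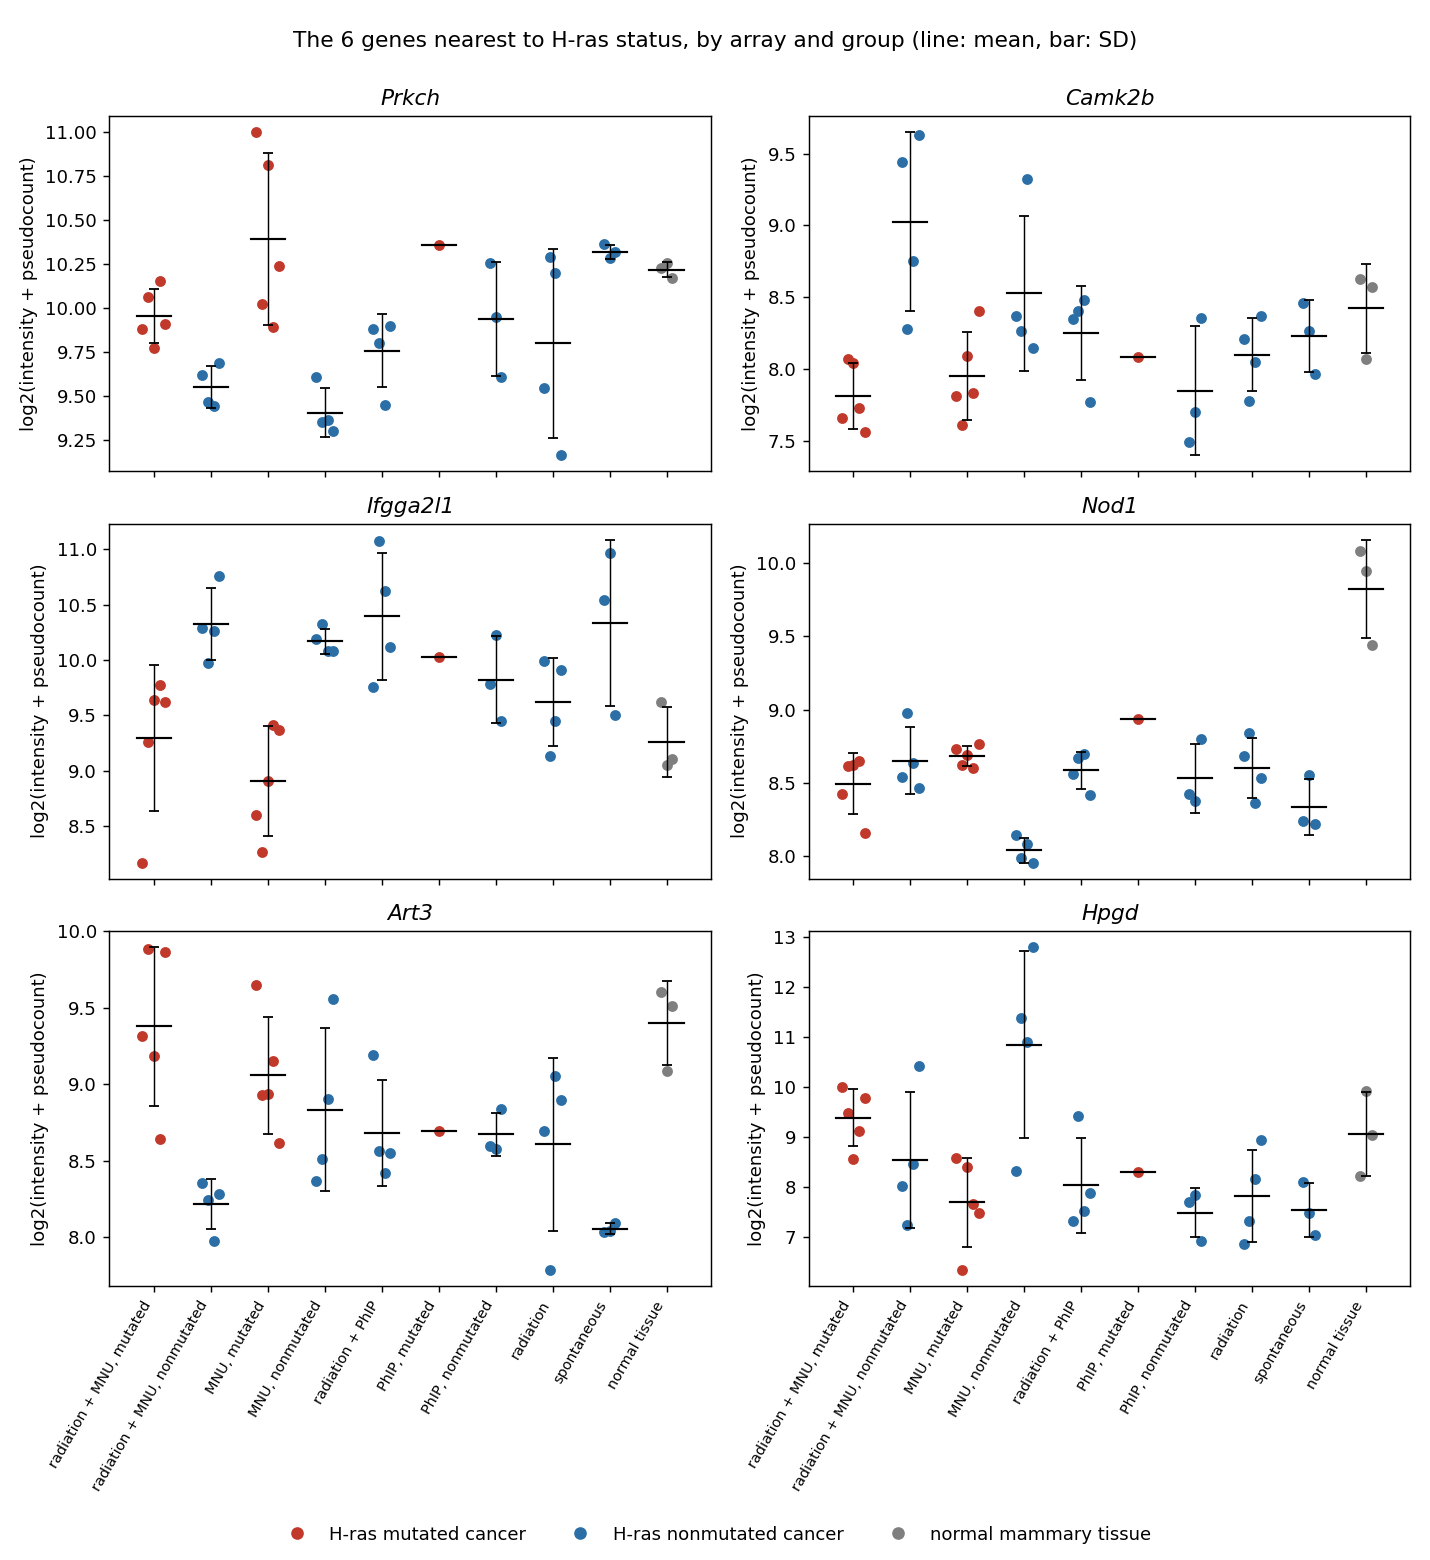
Each panel plots 1 gene, with log2(intensity + 42.8) on the vertical axis and the 10 groups on the horizontal axis; points are arrays, lines are group means and bars are SD. Prkch and Ifgga2l1 separate mutated from nonmutated cancers in both MNU regimens, Nod1 and Hpgd show their H-ras differences in MNU without radiation, and the 3 normal tissues stand above every cancer for Nod1.

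Prkch, the protein kinase C gene, was higher in H-ras mutated cancers of both MNU regimens. In radiation plus MNU its intensity was 898.7, 1026.8, 833.4, 1096.8 and 918.0 in mutated cancers, against 744.8, 663.2, 653.4 and 781.7 in nonmutated cancers. In MNU alone it was 2006.5, 998.5, 1761.9, 908.3 and 1166.8 in mutated cancers, against 738.2, 610.3, 616.1 and 587.9 in nonmutated cancers. All 10 mutated arrays lay above all 8 nonmutated arrays, and Prkch was the only gene of 11773 (0.00849%) of which this held. The log2 difference was 0.40 ± 0.20 in radiation plus MNU and 0.99 ± 0.20 in MNU (SE, here and for all differences below). A second probe set gave 0.29 with radiation and 1.19 without. On it the groups overlapped, with 8 of the 10 mutated arrays above all 8 nonmutated arrays.

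Nonmutated cancers of other causes spread over the Prkch levels of both the mutated and the nonmutated MNU cancers. Prkch intensity was 1274.4, 1204.6 and 1233.9 in spontaneous cancers and 1157.3, 1180.7 and 1110.5 in normal tissue, at the level of the mutated MNU cancers. The 14 nonmutated cancers without MNU ran from 530.7 to 1274.4 with a median of 928.7, and 5 of the 14 lay on the nonmutated side of the midpoint between the means of the 10 mutated and 8 nonmutated arrays. In the order of the 10 group means, MNU mutated came highest (10.4 on the log2 scale) and MNU nonmutated lowest (9.41), and none of the 9 gaps between neighbouring groups exceeded the pooled SD of 0.30. The second probe set placed normal tissue (mean 8.77 on the log2 scale) between the 10 mutated (9.18) and the 8 nonmutated arrays (8.44).

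Camk2b was lower in mutated cancers, with the larger difference where rats had also been irradiated. With radiation plus MNU its intensity was 160.0, 226.5, 220.8, 169.4 and 146.4 in mutated cancers, against 652.0, 268.9, 389.5 and 747.9 in nonmutated cancers. In MNU alone it was 183.0, 153.0, 230.1, 186.1 and 296.0 in mutated cancers, against 287.7, 265.4, 598.7 and 241.3 in nonmutated cancers. The groups did not overlap with radiation and overlapped in MNU alone through the mutated array at 296.0. The log2 differences were -1.21 ± 0.25 with radiation and -0.57 ± 0.25 without. The high values belonged to a few nonmutated arrays: the 14 nonmutated cancers without MNU ran from 137.8 to 314.8 and all lay below the 3 highest of the irradiated nonmutated group. The radiation plus MNU nonmutated group had the highest mean (9.03 on the log2 scale), above the next, MNU nonmutated (8.53), by more than the pooled SD of 0.38. The other Camk2b probe set lay between 4.2 and 83.3 on all 36 arrays and did not pass the filter on low values.

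Ifgga2l1 was lower in mutated cancers of both MNU regimens, and no array overlapped. After radiation plus MNU its intensity was 244.9, 569.6, 756.2, 834.2 and 743.3 in mutated cancers, against 1208.4, 962.7, 1185.8 and 1695.1 in nonmutated cancers. After MNU alone it was 343.6, 264.1, 436.6, 638.6 and 615.9 in mutated cancers, against 1124.3, 1239.2, 1041.8 and 1042.6 in nonmutated cancers. It was the only gene of 11773 (0.00849%) with all 10 mutated arrays below all 8 nonmutated arrays. The log2 difference was -1.03 ± 0.31 in radiation plus MNU and -1.26 ± 0.31 in MNU. Normal tissue, at 744.8, 485.9 and 508.0, lay in the range of the mutated cancers. The 14 nonmutated cancers without MNU spread from 518.8 to 2110.9 around a median of 944.9, and 10 of them lay on the nonmutated side of the midpoint.

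Nod1 was higher in mutated than in nonmutated cancers of MNU alone, and its levels overlapped in radiation plus MNU. After radiation plus MNU its intensity was 300.2, 348.6, 350.8, 358.3 and 242.3 in mutated cancers, against 329.1, 460.3, 354.3 and 309.5 in nonmutated cancers. After MNU alone it was 381.6, 351.7, 370.1, 346.3 and 392.9 in mutated cancers, against 239.4, 210.8, 227.8 and 205.3 in nonmutated cancers. The groups overlapped with radiation and were apart without it, and the log2 differences were -0.16 ± 0.13 in radiation plus MNU and 0.64 ± 0.13 in MNU. The MNU nonmutated group was the lowest of the 10 in its mean (8.04 on the log2 scale), and the 14 nonmutated cancers without MNU, between 254.4 and 415.0, all lay above its 4 arrays.

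Art3 showed the opposite arrangement, with its larger difference in irradiated rats. With radiation plus MNU its intensity was 595.3, 904.3, 537.8, 357.0 and 888.1 in mutated cancers, against 284.0, 260.2, 209.0 and 268.4 in nonmutated cancers. In MNU alone it was 761.4, 443.7, 447.7, 526.3 and 350.1 in mutated cancers, against 287.6, 322.0, 435.3 and 709.8 in nonmutated cancers. The log2 difference was 1.17 ± 0.26 with radiation, where the groups did not overlap, and 0.22 ± 0.26 without, where they did. Normal tissue was again near the mutated cancers, at 733.5, 500.3 and 685.6. The spontaneous cancers were the lowest group, at 218.5, 220.6 and 230.4, and 11 of the 14 nonmutated cancers without MNU lay on the nonmutated side of the midpoint.

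Hpgd had the widest spread of the 6 genes and H-ras differences of opposite sign in the 2 regimens. In radiation plus MNU its intensity was 968.9, 672.2, 333.4, 510.2 and 835.3 in mutated cancers, against 214.5, 106.6, 308.1 and 1328.2 in nonmutated cancers. In MNU alone it was 339.9, 37.7, 292.8, 157.8 and 134.2 in mutated cancers, against 276.5, 2608.4, 1846.2 and 7050.6 in nonmutated cancers. Both pairs of groups overlapped, through 1 array of each nonmutated group. The log2 difference was 0.86 ± 0.66 in radiation plus MNU and -3.16 ± 0.66 in MNU, and a second probe set gave 0.92 with radiation and -3.96 without. The 3 high MNU nonmutated cancers lay above every other array, and the next was the radiation plus MNU nonmutated array at 1328.2. The 14 nonmutated cancers without MNU ran from 73.0 to 638.0, and only 1 of them lay on the nonmutated side of the midpoint. The highest array, MNU nonmutated replicate 4, also had the highest 3'/5' ratio of hexokinase probe sets (12.3, against 1.66 to 4.66 on the other arrays), a sign of shortened RNA. Without it the Hpgd difference in MNU was -2.51 ± 0.67, and that of Art3 was 0.46 ± 0.26 in place of 0.22.

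The differences between the regimens, radiation plus MNU minus MNU, were -0.59 for Prkch, -0.64 for Camk2b, 0.23 for Ifgga2l1, -0.80 for Nod1, 0.94 for Art3 and 4.01 for Hpgd on the log2 scale. They share arrays with the contrasts that chose the genes, so they carry no test. Over all genes, 0 of 11773 (0%) passed for this interaction, and 391 (3.32%) had an unadjusted p under 0.05.

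The PhIP cancers gave a comparison that the choice did not use, of 1 H-ras mutated array with 3 nonmutated arrays. None of the 6 genes passed, against 1 gene of 11773 (0.00849%), Dmap1, over the array, which was named after its value was seen. The lone mutated array is assumed in this fit to vary like the other groups, and the estimate of spread includes the MNU arrays that chose the genes. Prkch was 1273.0 in the mutated PhIP cancer, against 1181.3, 947.4 and 736.9 in nonmutated ones. The mutated array was above all 3 (log2 difference 0.42 ± 0.34, 95% interval -0.27 to 1.12, limma adjusted p = 0.863). On the second Prkch probe set it was 457.6, within the range of the nonmutated ones (600.5, 396.6 and 279.1), with a difference of 0.15 ± 0.36. Nod1 was 447.3 in the mutated cancer, against 300.0, 288.5 and 403.2 in nonmutated ones, also above all 3 (0.41 ± 0.23, interval -0.06 to 0.87, limma adjusted p = 0.775). In all, 2 of the 6 genes lay beyond all 3 nonmutated arrays in the direction of their joint H-ras difference in the MNU regimens, against 22.9% of all genes, and 3 of 6 had the same sign, against 43.5%.

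Ifgga2l1 and Camk2b lay within the range of the nonmutated PhIP cancers in the mutated one. Ifgga2l1 was 997.2 there, against 840.5, 1156.6 and 656.1 in nonmutated PhIP cancers, a log2 difference of 0.20 ± 0.54 (limma adjusted p = 0.977). Its 95% interval ran from -0.90 to 1.30, and with the 4 radiation plus PhIP cancers added to the nonmutated side the difference was -0.13 (interval -1.15 to 0.90). Camk2b was 229.7 in the mutated cancer, against 137.8, 165.9 and 284.4 in nonmutated ones. Its difference was 0.24 ± 0.43 (limma adjusted p = 0.956), with an interval from -0.64 to 1.11. Art3 was 370.3, against 344.8, 339.5 and 414.1 in nonmutated PhIP cancers (0.02 ± 0.44, interval -0.89 to 0.92). Hpgd was 270.6, against 162.7, 185.8 and 77.7 (0.81 ± 1.14, interval -1.52 to 3.15), so the mutated array was the highest of the 4.

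**Figure D2:**
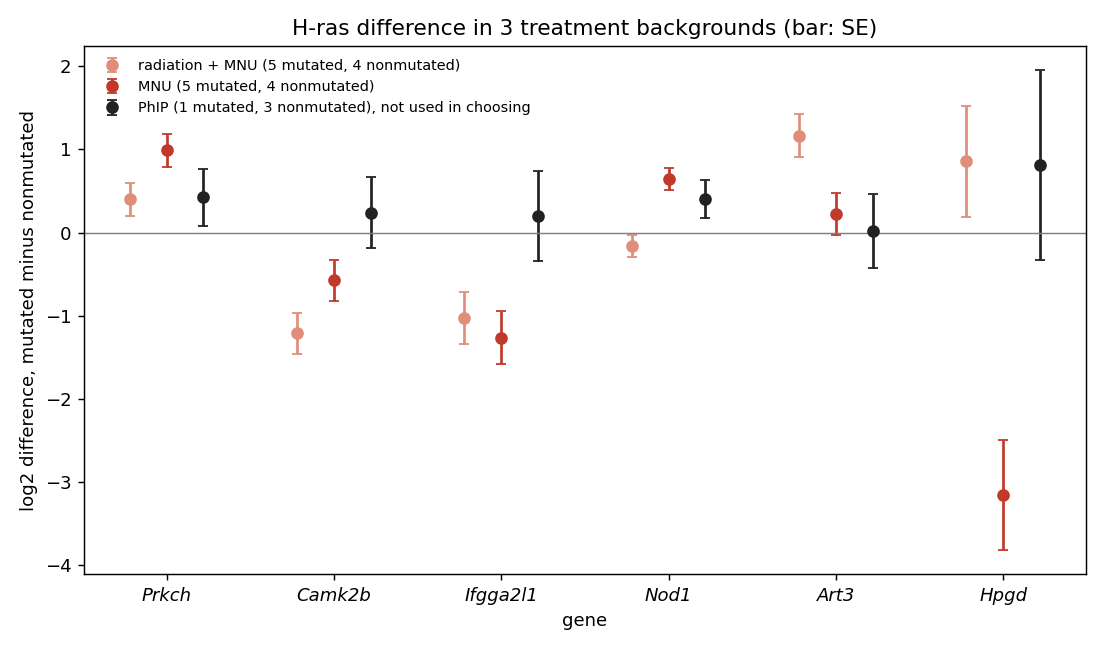
The log2 difference of H-ras mutated minus nonmutated cancers (vertical axis, bars are SE) is plotted for each gene in radiation plus MNU, MNU and PhIP, the last of which was not used in choosing the genes. The PhIP differences lie between 0.02 (Art3) and 0.81 (Hpgd), while Camk2b and Ifgga2l1 are below 0 in both MNU regimens.

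Markers of several cell types had H-ras differences of 1 sign in the MNU regimens, though no marker passed the threshold. All 12 macrophage markers had lower means in the mutated cancers, against 49% of all genes, and their summed intensity ran from 9107 to 22114 in mutated cancers and from 13115 to 34918 in nonmutated cancers. All 10 T and NK cell markers and all 10 fibroblast and matrix markers had lower means too, while 11 of 13 luminal epithelial markers had higher ones, against 51% of all genes. In PhIP the lists ran the other way, with 11 of 12 macrophage, 10 of 10 T and NK cell and 10 of 10 fibroblast markers higher in the mutated array, against 50.5% of all genes higher and 49.5% lower. Over the 33 cancers, which share arrays and scaling, the mean luminal level had r = -0.54 with Ifgga2l1, -0.42 with Camk2b, -0.42 with Hpgd, 0.39 with Prkch, 0.33 with Nod1 and 0.09 with Art3. The mean macrophage level had r = 0.36 with Camk2b, 0.24 with Ifgga2l1, 0.19 with Nod1, 0.14 with Hpgd, -0.10 with Prkch and -0.41 with Art3. Other lists had values as large. Ifgga2l1 had r = 0.43 with the B and plasma cell level and 0.32 with the T and NK cell level. Camk2b had -0.42 with the mast cell level and 0.40 with the B and plasma cell level. All these r include the H-ras groups that chose the genes. The part of these cells in the H-ras differences was not tested. These are bulk tissues, in which fewer cells of a type and less RNA per cell cannot be told apart.

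Against normal tissue, Nod1 was the gene of the 6 with the clearest difference. It ran from 205.3 to 460.3 with a median of 335.1 in the 33 cancers, against 1042.4, 942.0 and 653.5 in normal tissue. All 33 cancers lay below all 3 normal tissues, and 8.18% of all genes were likewise apart in 1 direction or the other. Nod1 fell by 1.31 ± 0.12 on the log2 scale (limma adjusted p = 1.51e-09), which is 0.403 times the normal level of intensity + 42.8. In the 14 nonmutated cancers without MNU, none of which entered the choice of genes, it fell by 1.30 ± 0.12 (limma adjusted p = 5.92e-09), with all 14 below all 3 normal tissues, against 17.3% of all genes apart in either direction. The lower level was shared by cancers with and without the mutation.

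Art3 was also lower in cancers. It ran from 177.5 to 904.3 in the 33 cancers with a median of 357.0, against 733.5, 500.3 and 685.6 in normal tissue, and 25 of 33 cancers lay below all 3 normal tissues. It fell by 0.66 ± 0.23 (limma adjusted p = 0.0277), a call that was lost without normal replicate 1 (adjusted p = 0.142) or normal replicate 3 (0.126). In the 14 nonmutated cancers without MNU it fell by 0.88 ± 0.24 (limma adjusted p = 0.00671), and 13 of the 14 lay below all 3 normal tissues.

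Ifgga2l1 was higher in the 14 nonmutated cancers without MNU, by 0.78 ± 0.30 on the log2 scale (limma adjusted p = 0.0427), with 10 of the 14 above all 3 normal tissues. That call was near the threshold. It was lost under quantile normalization (adjusted p = 0.0615) and without spontaneous replicate 1 or 2, radiation plus PhIP replicate 2 or 3, or normal replicate 2 or 3 (adjusted p up to 0.171). Over all 33 cancers the difference was 0.55 ± 0.28 (limma adjusted p = 0.135). Prkch, Camk2b and Hpgd did not pass in either comparison: over the 33 cancers Prkch differed by -0.31 ± 0.18, Camk2b by -0.22 ± 0.22 and Hpgd by -0.58 ± 0.60. For Hpgd the difference in the 14 cancers was -1.31 ± 0.63 (limma adjusted p = 0.107), with 12 of 14 below all 3 normal tissues. A second Prkch probe set gave 0.09, the opposite sign. In all, 2 of 6 genes passed with all cancers, against 34.4% of all genes, and 3 of 6 with the 14, against 33.7% (18.2% higher and 15.5% lower), so the number of calls was near the background.

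The normal tissue also differed in its cell types. All 8 endothelial and 9 of 10 adipocyte markers passed as lower in cancers, against 16.3% of all genes. So did 6 of 12 macrophage and 2 of 3 B and plasma cell markers. The summed intensity of the adipocyte markers ran from 2010 to 11388 in the 33 cancers and from 37039 to 46566 in normal tissue. Of the luminal epithelial markers, 8 of 13 passed as higher and 1 as lower. Among cell cycle markers 6 of 10 passed as higher, against 18% of all genes. The summed luminal intensity ran from 44688 to 74669 in cancers and from 46108 to 60875 in normal tissue, so the ranges overlapped. The mean luminal level was 11.47 in cancers and 11.07 in normal tissue on the log2 scale. The part of fat, vessels and other cell types in the lower Nod1 and Art3 of cancers was not tested.

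**Figure D3:**
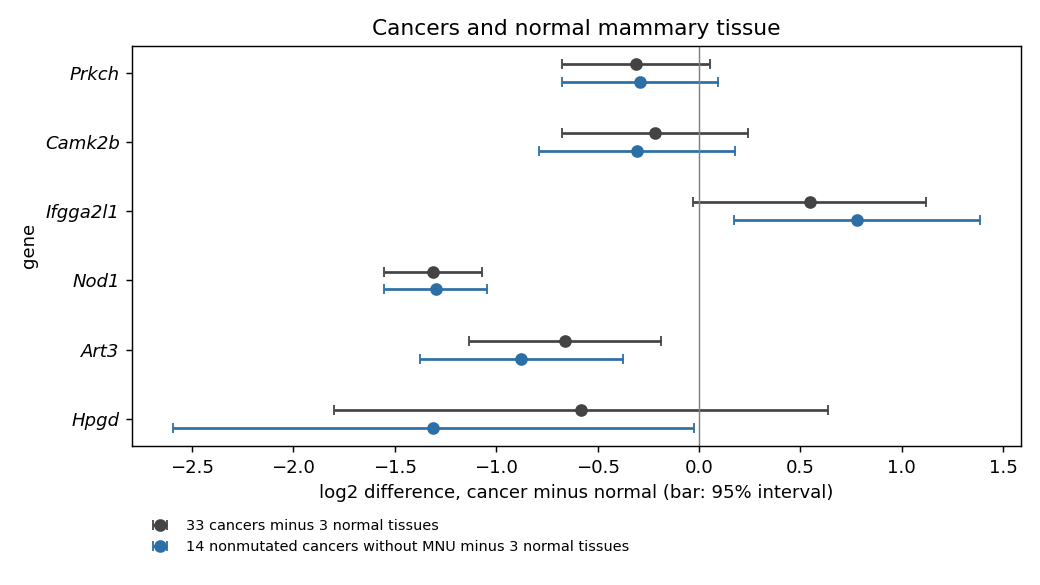
The log2 difference from the 3 normal tissues (horizontal axis, bars are 95% intervals) is plotted for each gene, for all 33 cancers and for the 14 nonmutated cancers without MNU. The Nod1 intervals lie wholly below -1, and those of Prkch and Camk2b include 0 for both sets of cancers.

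Neither the cause of a nonmutated cancer nor radiation gave a call for the 6 genes. An F test over the spontaneous, radiation, PhIP nonmutated and radiation plus PhIP groups called 0 of 6, with limma adjusted p from 0.776 (Prkch) to 0.997 (Hpgd), against 4 of 11773 genes (0.034%): Vsnl1, Ptprd, Plg and Stc1, named after their values were seen. Radiation against no radiation, averaged over 4 backgrounds, called 0 of 11773 genes (0%), with 1166 (9.9%) at an unadjusted p under 0.05. The averaged differences were -0.25 ± 0.11 for Prkch and 0.19 ± 0.07 for Nod1. They carry no test, because the MNU backgrounds hold the arrays that chose the genes. The spontaneous and PhIP backgrounds alone, compared after seeing the data, called 0 of 6. There Prkch differed by -0.35 ± 0.16 (limma adjusted p = 0.546) and Nod1 by 0.16 ± 0.11 (limma adjusted p = 0.686). The 4 backgrounds differed in sign. Prkch differed by -0.52 in cancers without a chemical, -0.44 in MNU mutated, 0.15 in MNU nonmutated and -0.18 in PhIP nonmutated cancers, and Nod1 by 0.27, -0.19, 0.61 and 0.05 in the same order. Hpgd averaged 0.05 ± 0.36, with 1.70 in MNU mutated and -2.32 in MNU nonmutated cancers.

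Pathway lists around the 6 genes are described by sign for the H-ras contrast, in which 0% of all genes passed and which chose the members. In the interferon list, which holds GTPases, the interferon-gamma receptor and its targets, 9 of 18 measured genes were higher and 9 lower in mutated cancers (median 0.01 on the log2 scale, against 0.00 over all genes). Ifgga2l1 and RGD1309362, which RefSeq also names Ifgga1, had differences of -1.15 ± 0.22 and -0.74 ± 0.18. Other GTPases of the list, Igtp (0.18 ± 0.14) and Irgm2 (0.32 ± 0.19), and the peptide transporter gene Tap1 (-0.04 ± 0.12) did not run with them. In the prostaglandin list 14 of 18 genes were lower in mutated cancers (median -0.10), and in the list of RAS-MAPK output, made of ERK target and feedback genes, 11 of 18 were lower (median -0.07).

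In cancers against normal tissue, where 18% of all genes rose and 16.3% fell, the RAS-MAPK list stood at 9 of 18 called, the interferon and prostaglandin lists at 8 of 18 each, and the other 4 lists below the 34.4% of all genes. In RAS-MAPK output 9 of 18 genes rose and 0 fell, among them the growth factor gene Areg (4.39 on the log2 scale, limma adjusted p = 2.51e-12) and the ERK feedback inhibitor gene Spry1 (1.31, limma adjusted p = 1.11e-08). In the interferon list 5 of 18 rose, among them the immunoproteasome gene Psmb9 (1.52, limma adjusted p = 1.31e-08), and 3 fell, among them the chemokine gene Cxcl10 (-1.21, limma adjusted p = 2.45e-05). In the prostaglandin list 3 of 18 rose and 5 fell. The prostaglandin transporter gene Slco2a1 rose by 2.20 (limma adjusted p = 9.09e-06), and the synthase gene Ptges and the receptor gene Ptger3 fell by 1.39 and 1.34 (limma adjusted p = 7.87e-05 and 0.000104).

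In the NOD1 signalling list 1 of 20 genes rose and 3 fell. Beside Nod1 these were the kinase adaptor gene Tab1 (0.29, limma adjusted p = 0.00339) and the transporter genes Slc46a3 (-1.13, limma adjusted p = 4.89e-05) and Slc15a2 (-0.95, limma adjusted p = 0.00896). Ripk2, the kinase that NOD1 recruits, differed by 0.12 ± 0.12 and did not pass. Of the calmodulin kinase genes 2 of 10 rose, the inhibitor gene Camk2n1 (1.73, limma adjusted p = 0.00042) and Camk2g (0.35, limma adjusted p = 0.032). In the protein kinase C list 1 of 10 genes rose, the protein kinase D gene Prkd3 (0.42, limma adjusted p = 0.00679). Of the 7 ADP-ribosylation genes Adprh, a hydrolase, rose (0.30, limma adjusted p = 0.0369) and Art3 fell.

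The genes most like each of the 6 were found by Pearson's r over the 33 cancers, whose values share arrays and scaling. For Ifgga2l1 these were RGD1309362 (r = 0.82), Slfn4 (0.79), a Schlafen family gene, and Mx1 (0.78), an interferon-induced antiviral GTPase. Spearman's rho was 0.82 for RGD1309362, and r was 0.65 once each group's mean was subtracted, 0.81 without the 2 arrays farthest from the median and 0.79 over the 14 nonmutated cancers without MNU. For Slfn4 and Mx1 r within groups was 0.83 and 0.75. The promoters of Slfn4 and Mx1 held no such core in the same window, and none was available for RGD1309362. Among the genes most like the other members, named below, the core occurred in the promoters of Rbm43, Fcgr3a and, at 2 positions, Ddx60.

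**Figure D4:**
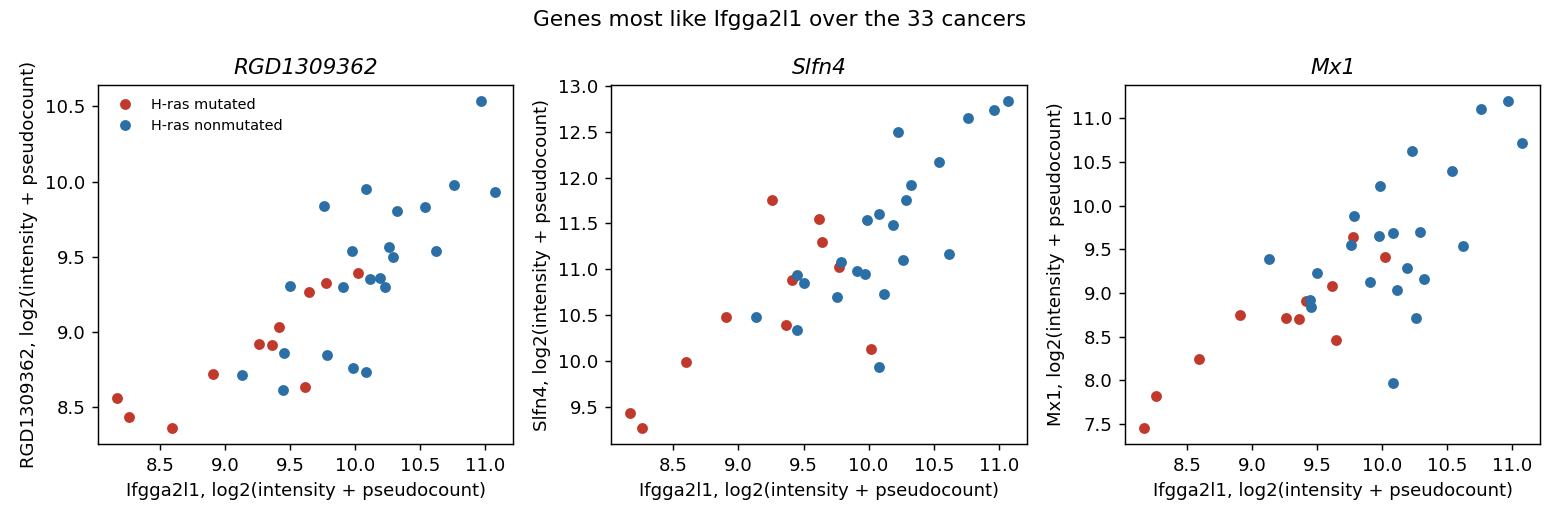
Each panel plots 1 of the 3 genes most like Ifgga2l1 (vertical axis) against Ifgga2l1 (horizontal axis), both as log2(intensity + 42.8), with 1 point per cancer (33). The points rise together in mutated and nonmutated cancers, with r = 0.82 for RGD1309362, 0.79 for Slfn4 and 0.78 for Mx1.

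For Camk2b the nearest genes were Cmklr1 (r = 0.77, rho = 0.70, 0.77 within groups and 0.68 without the 2 farthest arrays), the chemerin receptor of macrophages, Lipa (0.71), the lysosomal acid lipase, and Scpep1 (0.70), a carboxypeptidase. For Prkch they were Rbm43 (r = 0.76, rho = 0.81, 0.61 within groups and 0.70 without the 2 farthest arrays), an RNA-binding protein gene, Nin (0.74), which encodes the centrosome protein ninein, and Cntnap2 (0.73). For Nod1 they were Hpf1 (r = -0.73, rho = -0.72, -0.55 within groups and -0.66 without the 2 farthest arrays), a partner of poly-ADP-ribose polymerases, Chrne (0.71) and the CTP synthase gene Ctps1 (-0.67).

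Art3 had its nearest genes with negative r, Fcgr3a (r = -0.62, rho = -0.68, -0.41 within groups and -0.66 without the 2 farthest arrays), an Fc receptor of macrophages and NK cells, Pcbp3 (-0.61) and Ddx60 (-0.61), an interferon-induced helicase. For Hpgd they were Fkbp5 (r = 0.72), a glucocorticoid-induced co-chaperone, Rgs2 (0.71) and Pros1 (0.70). The Hpgd relations leaned on its highest arrays: for Fkbp5 rho was 0.50, and r was 0.47 without the 2 farthest arrays. Among the 6 genes themselves r over the cancers was strongest for Nod1 with Hpgd (-0.60, and -0.42 within groups) and for Camk2b with Ifgga2l1 (0.54, and 0.33 within groups).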

How the data were processed

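The deposited table holds 1 linear intensity per probe set and array, from biotin-labelled cRNA per the labels' protocols. The sources used here do not give the method that summarised probes, and each array's mean without 2% of probe sets at each end was about 500. Intensities (0.0151 to 32544, array medians 161.4 to 222.7) became log2(intensity + 42.8), the 20th percentile. Probe sets above 125.8 (40th percentile) on at least 3 arrays were kept. Symbols came from the platform annotation (20832 probe sets with 1 symbol, 436 with several, 9831 with none), and each took its probe set with the highest mean, leaving 11773 genes. Groups came from the labels, and all 36 arrays entered one limma 3.58.1 fit in R 4.3.3 with Benjamini-Hochberg adjustment and a threshold of 0.05, tested on simulated data. The number of arrays limits precision.

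The members, gene lists and tests were chosen with earlier results of these data known. The H-ras by radiation interaction, planned as a test, is given for the members as a description because single regimens chose some of them. Radiation averaged over 4 backgrounds, also planned as a test, is treated likewise, since the MNU arrays that chose the members enter it. The comparison of all cancers with normal tissue kept its tests, although the same arrays enter it. Named genes are the 6 members with all their probe sets, the 3 ranked next after the last and some others with high H-ras ranks. Further ones are the 3 most correlated with each member over the 33 cancers, and up to 4 per list with the smallest adjusted p. Promoters are RefSeq's, build GRCr8. Same-numbered arrays did not deviate together (median r of 0.00 over 122 pairs), so the numbers were not taken to pair arrays. Alternatives were other pseudocounts, no filter, quantile normalization, a replicate block, every probe set on its own, PhIP with 7 nonmutated arrays and leaving out each array; radiation in the spontaneous and PhIP backgrounds alone was added after seeing the data.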

Additional observations from a re-analysis of the deposited data

How the results depend on the processing

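Nod1 kept its call against normal tissue under every alternative run, and so did Art3 in the 14 nonmutated cancers without MNU. The Ifgga2l1 call there had an adjusted p of 0.0615 under quantile normalization, 0.0687 with the replicate block and 0.0222 to 0.171 when 1 array was left out. Over all genes, the F test called 4 genes, and 1 with the pseudocount at the 5th percentile, 8 with every probe set, 2 with the replicate block, 1 where low values were not filtered and 1 to 7 without 1 array. PhIP called 1 gene, and 2 with no filter or every probe set. Leaving out 1 array gave 0 to 2 in PhIP (0 without PhIP nonmutated replicate 1 or 2, 2 without normal replicate 2). Radiation called 0 genes, 1 with the replicate block and 0 to 3 without 1 array (1 without spontaneous replicate 2 or radiation replicate 1, 3 without radiation plus MNU mutated replicate 5). H-ras called 0 to 4 (1 without radiation plus PhIP replicate 4, 2 without MNU nonmutated replicate 1, 4 without radiation plus MNU nonmutated replicate 2) and the interaction 0 to 1 (without MNU nonmutated replicate 1). Cancers against normal tissue called 6707 and the 14 nonmutated cancers 6526 of 21976 with every probe set, and 2734 to 4260 and 2751 to 4255 without 1 array; of the members 1 to 2 and 2 to 3 were called. Signs turned for uncalled values: Hpgd for radiation (-0.0203 with the pseudocount at the 40th percentile, -0.157 to 0.215 without 1 array), Ifgga2l1 for radiation (-0.0716 in the spontaneous and PhIP backgrounds alone, -0.00545 to 0.177 without 1 array) and in PhIP (-0.13 with 7 nonmutated arrays), Art3 in PhIP (-0.0222 under quantile normalization, -0.139 with the replicate block, -0.0269 to 0.102 without 1 array), and Prkch by its second probe set (0.0887 over all cancers and 0.0882 over the 14 against normal tissue). That probe set gave -0.90 for the interaction, against -0.59. Leaving out 1 array moved the joint H-ras difference of Hpgd between -1.57 and -0.83 (without MNU nonmutated replicate 1 or 4). The cause of these changes was not tested. The replicate block, with which 8 of 35 arrays correlated best with their own number, changed no other call of the members. The lone mutated PhIP array cannot be left out of its own comparison.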
